A study of Mus musculus with 6 samples.

Results

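The genes described here are 45 genes of the interferon response and of antigen presentation by MHC class I, taken by name from the 54532 genes of the deposited count and FPKM table, in which each of the 45 was found. They fall by role into 11 genes of antigen presentation, 15 of signalling and 19 effectors. RNA was sequenced from primary neurospheres, which are floating clusters that neural progenitors form in culture, of C57BL/6 mouse embryos at E14.5, after 6 days in culture with EGF and bFGF at 20 ng/ml each. The KO group (3 libraries, numbered 1, 2 and 3) came from embryos with a conditional knockout of Ash2l made with D6-Cre, a Cre transgene active in the dorsal forebrain, and the WT group (3 libraries, numbered 3, 6 and 7) came from embryos labelled WT. Ash2l encodes a subunit common to the COMPASS family of histone H3 lysine 4 methyltransferases. One label gives dorsal cortex as the tissue while the protocol speaks of dissecting the ventricle walls, and which was used cannot be told from them. Nothing in the labels ties each library to its own embryo or culture, so the p-values reflect only how the libraries spread, part of which may be technical.

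Interferons are secreted proteins that signal through paired receptors at the cell surface. The type I receptor (IFNAR1 and IFNAR2) and the type II receptor (IFNGR1 and IFNGR2) pass the signal through JAK kinases to STAT proteins, and STAT2 joins IRF9 in a complex that binds the interferon-stimulated response element of its target genes. Many targets are effectors that act against viruses, and others are parts of the route by which a cell shows peptides on MHC class I: the immunoproteasome cuts proteins, the TAP transporter carries peptides into the endoplasmic reticulum, tapasin helps to load them, and a heavy chain with beta-2-microglobulin carries them to the surface. Neural cells of the embryo are known for low MHC class I and low basal interferon signalling.

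Total counts ran from 16764480 to 21007543 in the KO libraries and from 17575641 to 21983659 in the WT libraries, and 3 reads correspond to 0.142 to 0.173 CPM (counts scaled to library size, with TMM normalisation) in KO and to 0.142 to 0.168 CPM in WT. Ash2l itself was at 86.3, 99.3 and 102 CPM in KO 1, KO 2 and KO 3, against 116, 113 and 109 CPM in WT 3, WT 6 and WT 7 (log2 fold change -0.24, SE 0.10, adjusted p = 0.119 by edgeR's quasi-likelihood test). The deleted exons are not given, and reads from exons left in place may be part of these values. How complete the deletion was cannot be told from them. All 10 neural progenitor markers checked were tested, and 5 of them differed between the groups: Nes was 4.64-fold higher in KO, and Sox2, Pax6, Msi1 and Hes5 were 2.22-fold, 2.37-fold, 2.52-fold and 7.82-fold lower, each whichever library was left out. The list summed to 3950, 5840 and 3930 CPM in KO, against 4160, 5420 and 4440 CPM in WT. WT 3 stood apart from WT 6 and WT 7 on principal component 1 of log2 CPM, which held 69.9% of the variance, with KO at -76.8, -62.6 and -53.5 and WT 3, WT 6 and WT 7 at 25.5, 81.7 and 85.7. KO 1 stood apart in markers of meningeal fibroblasts, with 729 CPM summed over 10 genes in KO 1, 44.2 in KO 2 and 90 in KO 3, against 26.5, 36.3 and 50.5 in WT 3, WT 6 and WT 7. Results that rest on WT 3 or KO 1 are given with and without them.

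The promoters of 4 members are shown because the interferon-stimulated response element is what many of these genes are known to share, and because these 4 differed in level and in change. The sequences are the 150 bases before the RefSeq start (GRCm38.p6, which has the coordinates of mm10), 5′ to 3′ on the strand of the gene. Capitals mark the letters that match the core of the response element, GAAANN followed by GAAA, or the gamma-activated site, TTCNNN followed by GAA, on either strand. In Bst2 sites of both kinds overlap, and in Isg15 copies of the response element do. Bst2 (tetherin) and B2m stand at chr8:71537473-71537622 (minus strand) and chr2:122147537-122147686 (plus strand), and Isg15 and Gbp2 at chr4:156200819-156200968 (minus strand) and chr3:142620513-142620662 (plus strand).
Bst2: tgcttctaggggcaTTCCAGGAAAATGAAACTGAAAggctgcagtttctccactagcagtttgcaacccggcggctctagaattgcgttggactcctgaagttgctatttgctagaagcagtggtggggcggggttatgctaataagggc
Gbp2: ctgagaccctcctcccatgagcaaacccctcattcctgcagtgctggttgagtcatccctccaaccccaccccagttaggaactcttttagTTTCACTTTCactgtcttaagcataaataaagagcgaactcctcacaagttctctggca
Isg15: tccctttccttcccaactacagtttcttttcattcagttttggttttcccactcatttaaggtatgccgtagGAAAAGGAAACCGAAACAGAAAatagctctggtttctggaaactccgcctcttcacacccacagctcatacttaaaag
B2m: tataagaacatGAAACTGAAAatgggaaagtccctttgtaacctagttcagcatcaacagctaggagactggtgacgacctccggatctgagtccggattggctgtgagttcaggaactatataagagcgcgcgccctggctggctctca
Over windows of 300 bases, from 250 before to 50 after the start, 40 of the 45 members had a RefSeq promoter. The core of the response element was found in 15 of these 40 (37.5%), against 3.99% of all 27025 genes with such a window, and the gamma-activated site in 10 of 40 (25%), against 9.55%. By role, 10 of 16 effectors, 3 of 15 signalling genes and 2 of 9 antigen presentation genes held the response element. Of the 4 genes shown, Bst2 rose and Gbp2 fell in KO, and Isg15 and B2m did not pass the test described next. A match of letters is a description of the window, and binding was not measured.

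Between KO and WT, 9 of these genes changed, in both directions, with effectors, signalling genes and antigen presentation genes among both those that rose and those that fell. Of the 45 members, 43 passed the filter on low counts and were tested, and 5 were higher and 4 lower in KO at an adjusted p of 0.05 (edgeR quasi-likelihood test, Benjamini-Hochberg over all 16606 genes tested). These 9 are 20.9% of the tested members, below the 29.0% of all tested genes that passed. Of all tested genes, 13.5% were higher and 15.5% lower. The median log2 fold change was -0.17 over the 43 and 0 over all tested genes. Normalised CPM of the KO libraries lay above that of all WT libraries in 6 of the 43 members and below it in 7, against 23.5% and 25.2% of all tested genes. On a log2 scale, WT 3 lay nearer to the KO mean than to the mean of the other WT libraries in 24 of the 43 members (55.8%, against 41.2% of all tested genes).

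**Figure D1:**
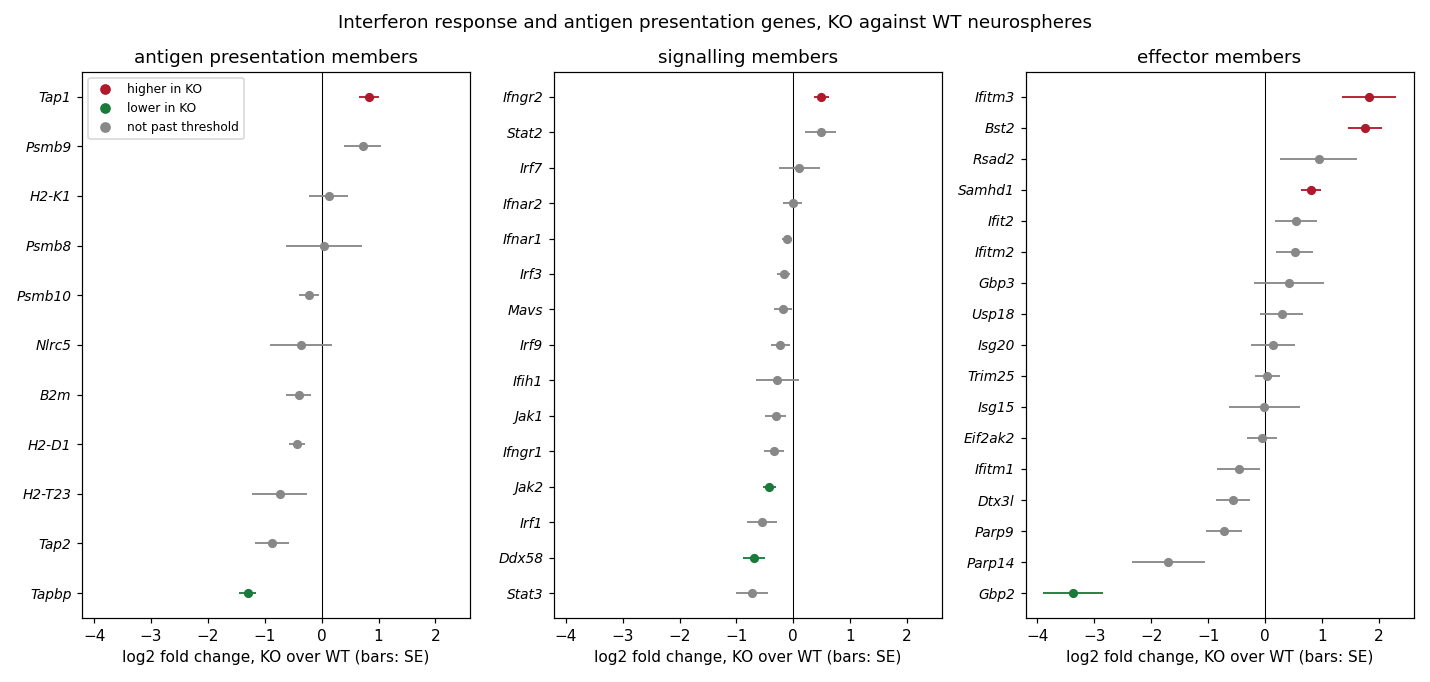
Log2 fold change of KO over WT (x axis) with its SE (bars) for the 43 tested members, in panels by role, each ordered from the highest at the top. Red points passed the threshold as higher in KO (5 members), green as lower (4) and grey did not pass (34), and within each role the points lie on both sides of 0.

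Levels were compared between genes on the deposited FPKM scale, which divides by gene length. Only 13 members averaged at least 10 FPKM over the 6 libraries, 5 of them genes of antigen presentation, 6 of signalling and 2 effectors. B2m, the light chain of MHC class I, was the highest, at 65.7, 62.5 and 58.3 FPKM in KO 1, KO 2 and KO 3, against 53.6, 87.3 and 93.6 FPKM in WT 3, WT 6 and WT 7. Below 1 FPKM in every library were 10 members, among them 3 antigen presentation genes, 2 signalling genes and 5 effectors. Some genes often used as reporters of an interferon response had few reads. Ifit1, an RNA-binding effector, had 6, 0 and 2 reads in the KO libraries, against 2, 5 and 6 in the WT libraries, and Ifit3 had 9, 9 and 5, against 0, 20 and 11. These are the 2 members that were not tested. Isg15, a ubiquitin-like modifier, had 21, 11 and 6 reads in KO, against 18, 15 and 7 in WT, and Rsad2 (viperin) had 12, 37 and 16, against 3, 11 and 22. The groups overlapped in all 4 of these genes, which were picked after their values were seen. Ifit2, of the same family as Ifit1, had more, at 134, 168 and 199 reads in KO, against 55, 174 and 130 reads in WT. Of the 10 interferon genes looked up, 8 had no read in any library, and Ifng and Ifnk reached at most 2 reads in a library. A count of 0 allows up to 3 reads, counting error only.

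**Figure D2:**
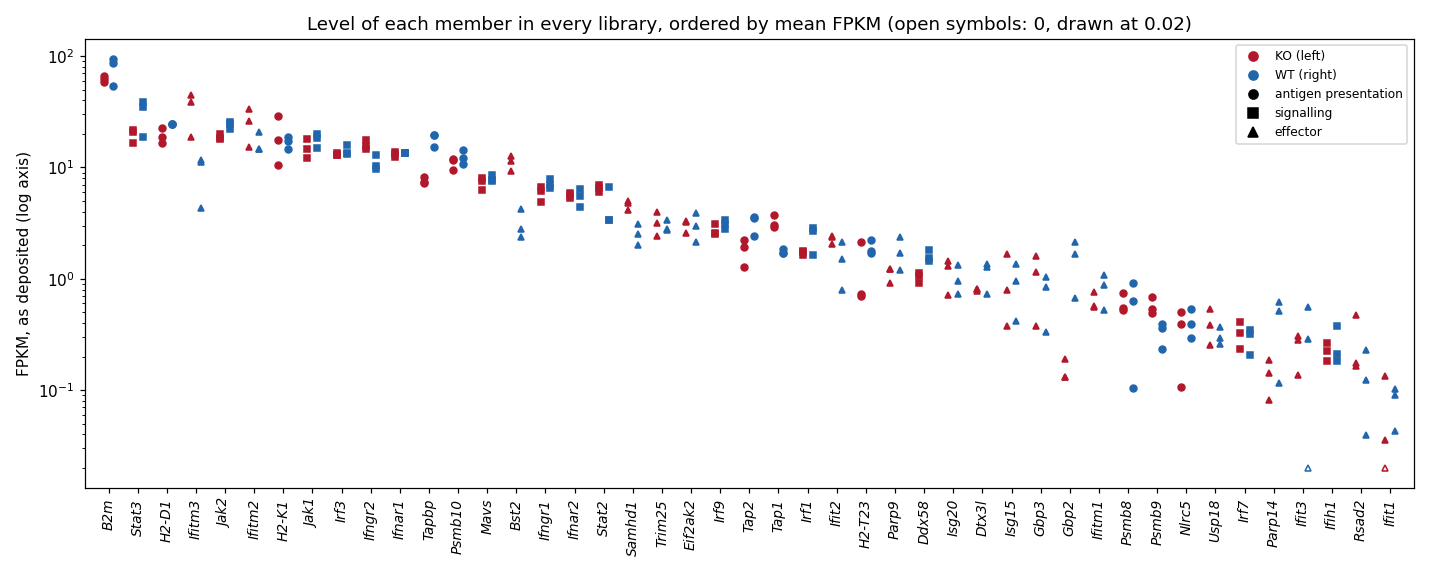
FPKM as deposited, on a log axis, of each of the 45 members (x axis, ordered by mean) in every library, with KO on the left in red and WT on the right in blue. Circles are antigen presentation genes, squares signalling genes and triangles effectors, open symbols stand for 0, and levels run from B2m above 50 FPKM to Ifit1 below 0.2 FPKM.

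Among the 11 genes of antigen presentation, the peptide transporter subunit Tap1 rose and the loading factor Tapbp fell, and the other 9 did not pass. Tapbp (tapasin, ENSMUSG00000024308, chromosome 17 from 33915899 to 33929288 on mm10) was at 23.8, 23.4 and 26.7 CPM in the KO libraries, against 49.1, 66.6 and 66.4 CPM in WT 3, WT 6 and WT 7. The groups did not overlap. The mean was 24.7 ± 1.80 CPM in KO and 60.7 ± 10.1 CPM in WT (SD, n = 3 each), 2.46-fold lower in KO (log2 fold change -1.30, SE 0.15, adjusted p = 0.00254, edgeR). The call held whichever library was left out, at -1.43 without WT 3 and -1.25 without KO 1. Other annotated genes share 29% of the exon bases of Tapbp in GENCODE M21, Zbtb22 and Gm19412. Zbtb22, whose mean count was close to that of Tapbp, stood at a log2 fold change of -0.38 (SE 0.16, adjusted p = 0.115), and how reads were split between them was not measured.

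Tap1 (chromosome 17 from 34187553 to 34197225) was at 15.6, 16.5 and 20.1 CPM in KO, against 9.14, 10.5 and 9.80 CPM in WT, and the groups did not overlap (log2 fold change 0.83, SE 0.18, 1.77-fold, adjusted p = 0.0155, edgeR). Its call ended without WT 6 (adjusted p = 0.0546) and without WT 7 (adjusted p = 0.0586). Its partner in the transporter, Tap2, lay on the other side of 0, at 4.67, 8.37 and 7.28 CPM in KO, against 9.09, 14.2 and 13.9 CPM in WT, without passing (-0.87, SE 0.30, adjusted p = 0.0647). The difference between Tap1 and Tap2 was not tested. Tap2 passed without WT 3 (-1.05, adjusted p = 0.023) and with DESeq2 (adjusted p = 0.0298), and 18.5% of its exon bases belong to other annotated genes too.

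Psmb9, an immunoproteasome subunit that starts back to back with Tap1 and overlaps it over 212 exon bases, was at 2.42, 1.94 and 1.80 CPM in KO, against 0.841, 1.51 and 1.37 CPM in WT. Its groups did not overlap either, but the difference was short of the threshold (log2 fold change 0.72, SE 0.33, adjusted p = 0.137, edgeR). The other immunoproteasome subunits, Psmb8 (0.04, SE 0.66) and Psmb10 (-0.22, SE 0.18), did not pass. On the FPKM scale the immunoproteasome subunits Psmb8 and Psmb9 stayed under 1 FPKM in every library and Psmb10 at 9.52 to 11.9 FPKM in KO, against 10.8 to 14.2 in WT. The constitutive subunits that they replace were higher, with Psmb5 at 113 to 129 FPKM in KO, against 97.8 to 108 in WT, Psmb6 at 95 to 106, against 79.3 to 87.3, and Psmb7 at 32.7 to 37.1, against 25.0 to 32.1. None of these 3 constitutive subunits passed (adjusted p from 0.163 to 0.259, edgeR). At an unadjusted p of 0.05 and with DESeq2, 4 and 3 of the 11 antigen presentation genes passed. The shares of all genes that pass in these 2 ways are not given here. Such counts, here and below, therefore cannot be read as above or below the share of all genes.

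The 3 class I heavy chain genes among the members did not pass. H2-D1 was at 41.3, 47.1 and 57.7 CPM in KO, against 63.0, 66.7 and 66.6 CPM in WT (log2 fold change -0.43, SE 0.14, adjusted p = 0.0588, edgeR), with every KO library below every WT library, and it passed without KO 3 (-0.55, adjusted p = 0.0257). H2-K1 spread more within KO, at 26.8, 45.1 and 75.1 CPM, against 48.6, 46.6 and 40.0 CPM in WT (0.12, SE 0.34, adjusted p = 0.803). H2-T23, a non-classical heavy chain, was at 2.02, 2.00 and 6.10 CPM in KO, against 5.10, 6.78 and 5.11 CPM in WT (-0.74, SE 0.48, adjusted p = 0.268), and it passed without KO 3 (-1.48, adjusted p = 0.019). KO 3 was the highest KO library for all 3 heavy chains. These genes resemble each other, and 14.3% of the 50-base words of the longest H2-D1 transcript, 8.11% of those of H2-K1 and 16% of those of H2-T23 occur in transcripts of other genes, so the split of reads between them is uncertain. B2m was at 54.6, 52.9 and 49.8 CPM in KO, against 45.4, 78.3 and 83.8 CPM in WT (-0.40, SE 0.22, adjusted p = 0.208). Nlrc5, the transcriptional activator of MHC class I genes, stood at -0.36 (SE 0.54) and did not pass.

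Of the 15 signalling genes, the receptor gene Ifngr2 rose, the kinase gene Jak2 and the RNA sensor gene Ddx58 fell, and 12 did not pass. Ifngr2, the signal-transducing chain of the type II receptor, was at 57.2, 54.5 and 65.3 CPM in KO, against 47.5, 38.0 and 40.4 CPM in WT (log2 fold change 0.49, SE 0.13, 1.41-fold, adjusted p = 0.0303, edgeR). Its ligand-binding partner Ifngr1 stood at 13.4, 18.7 and 17.4 CPM in KO, against 18.5, 20.7 and 23.1 CPM in WT, and did not pass (-0.34, SE 0.18, adjusted p = 0.199). The type I receptor genes varied little, with Ifnar1 at 72.0 to 80.7 CPM in KO, against 79.2 to 84.5 in WT (-0.11, SE 0.09, adjusted p = 0.384), and Ifnar2 at 17.4 to 19.3 CPM, against 15.3 to 20.9 (-0.01, SE 0.17, adjusted p = 0.977).

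Jak2, the kinase bound to IFNGR2 and to several cytokine receptors, was at 97.9, 90.5 and 89.6 CPM in KO, against 110, 134 and 128 CPM in WT (log2 fold change -0.42, SE 0.11, adjusted p = 0.0279, edgeR). Jak1, the kinase of both receptor types, stood at -0.31 (SE 0.18, adjusted p = 0.224). Ddx58, which encodes the sensor RIG-I of viral RNA, was at 7.67, 6.37 and 7.43 CPM in KO, against 10.7, 13.2 and 10.7 CPM in WT (-0.69, SE 0.20, adjusted p = 0.0403). The groups did not overlap in Ifngr2, Jak2 or Ddx58. All 3 calls were close to the threshold and held without WT 3, and each ended when any other single library was left out (adjusted p from 0.0599 to 0.158). The sensor gene Ifih1 (MDA5) and the adaptor gene Mavs, which both RNA sensors act through, did not pass (adjusted p = 0.59 and 0.393).

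**Figure D3:**
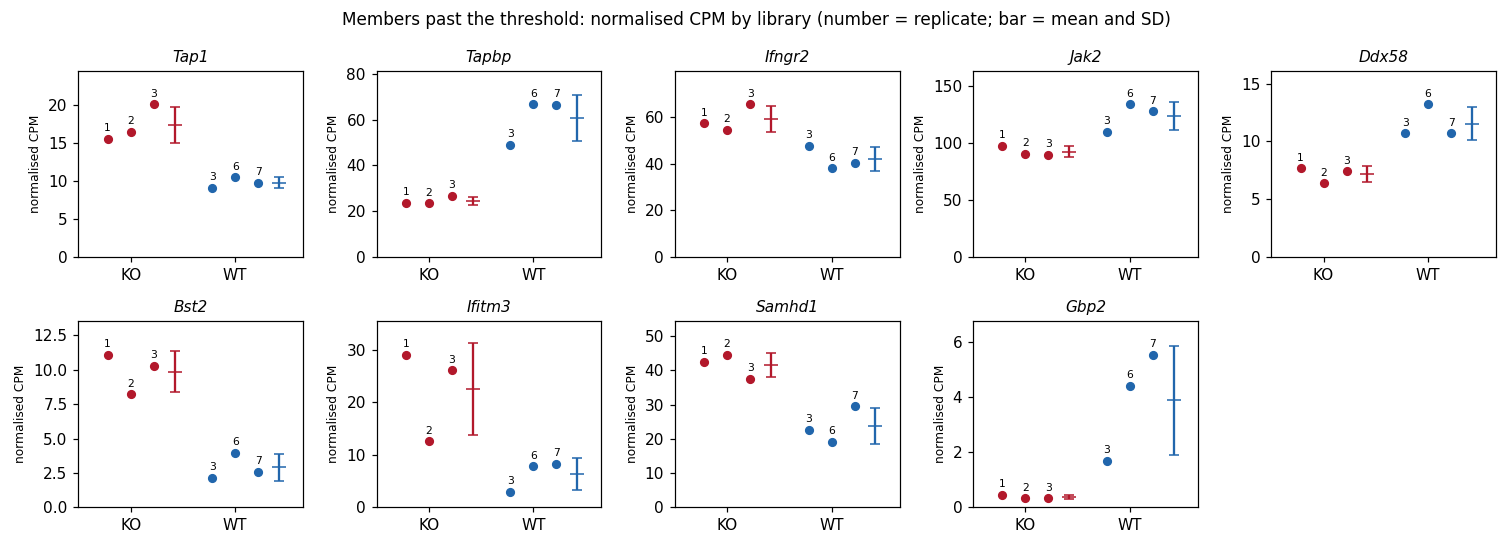
Normalised CPM (y axis, linear from 0, each panel with its own scale) of the 9 members past the threshold, in the 3 KO libraries (red) and the 3 WT libraries (blue), with replicate numbers beside the points and the mean with its SD to their right. The groups do not overlap in any panel, and Gbp2 stays below 0.5 CPM in KO.

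None of the 6 transcription factor genes passed with all libraries in the edgeR quasi-likelihood test. At an unadjusted p of 0.05, 1 of them did (Stat3), DESeq2 called 0 and limma-voom 3. Stat3, which acts downstream of many cytokine receptors, was at 192, 203 and 158 CPM in KO, against 176, 348 and 385 CPM in WT 3, WT 6 and WT 7 (log2 fold change -0.72, SE 0.28, adjusted p = 0.0977). Stat2 lay on the other side, at 34.2, 40.2 and 38.2 CPM in KO, against 39.3, 20.8 and 20.8 CPM in WT (0.48, SE 0.27, adjusted p = 0.206). Irf1, an early target of type II interferon, was at 6.63, 6.37 and 7.05 CPM in KO, against 6.39, 11.1 and 11.9 CPM in WT (-0.55, SE 0.27, adjusted p = 0.165). In all 3 genes WT 3 was at the KO level and WT 6 and WT 7 were not. Irf9 (-0.23, SE 0.17) and Irf3 (-0.17, SE 0.11) did not pass. Irf7, itself a strong target of type I interferon, had at most 26 reads in a library (0.10, SE 0.36), and its annotated span overlaps that of Phrf1, which had many more reads.

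Of the 17 effectors tested, 3 rose and 1 fell. Gbp2, a guanylate-binding GTPase known as a target of type II interferon (ENSMUSG00000028270, chromosome 3 from 142620602 to 142638008 on mm10), had the largest change of all 43 members. It had 8, 6 and 7 reads in the KO libraries, against 30, 88 and 117 reads in WT 3, WT 6 and WT 7, or 0.461, 0.324 and 0.331 CPM, against 1.68, 4.42 and 5.54 CPM. The mean was 0.372 ± 0.0772 CPM in KO and 3.88 ± 1.98 CPM in WT (SD, n = 3 each), 10.3-fold lower in KO (log2 fold change -3.37, SE 0.53, adjusted p = 0.00534, edgeR), and the call held whichever library was left out, from -3.73 without WT 3 to -3.03 without WT 7. Its neighbour Gbp3, of the same family, did not pass, at 5.07, 3.72 and 1.23 CPM in KO, against 1.07, 2.86 and 3.50 CPM in WT (0.42, SE 0.61, adjusted p = 0.621).

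Bst2, which holds budding virions at the cell surface (ENSMUSG00000046718, chromosome 8 from 71534255 to 71537456), was at 11.1, 8.21 and 10.3 CPM in KO, against 2.13, 3.97 and 2.60 CPM in WT. The lowest KO library had 152 reads and the highest WT library 79 reads. The mean was 9.85 ± 1.48 CPM in KO and 2.90 ± 0.953 CPM in WT (SD, n = 3 each), 3.39-fold higher in KO (log2 fold change 1.76, SE 0.30, adjusted p = 0.00713, edgeR), and the call held whichever library was left out, at 1.58 without WT 3 and 1.69 without KO 1. No 50-base word of its longest transcript occurs in another annotated gene.

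Samhd1, an enzyme that breaks down deoxynucleotides, was at 42.5, 44.6 and 37.6 CPM in KO, against 22.6, 19.1 and 29.5 CPM in WT (log2 fold change 0.81, SE 0.18, 1.75-fold, adjusted p = 0.0185, edgeR). Its call ended without KO 1, KO 2 or WT 6 (adjusted p from 0.0537 to 0.0674). Ifitm3, a membrane protein that restricts viral entry, was at 29.1, 12.6 and 26.1 CPM in KO, against 2.92, 7.83 and 8.29 CPM in WT (1.83, SE 0.47, 3.55-fold, adjusted p = 0.0274). Its call held without WT 3 (1.48, adjusted p = 0.0162) and without KO 2, and ended without KO 1 (1.63, adjusted p = 0.0803), KO 3, WT 6 or WT 7. Ifitm2 did not pass (0.52, SE 0.32, adjusted p = 0.252), and Ifitm1 was under 1.2 CPM in every library. The family shares sequence, with 48.5% of the 50-base words of Ifitm2 and 10% of those of Ifitm3 found in other genes, so the values of Ifitm2 in particular are uncertain.

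Summed over the 19 effectors, FPKM was 105, 63.4 and 102 in KO 1, KO 2 and KO 3, against 36.5, 49.0 and 58.4 in WT 3, WT 6 and WT 7. Without Ifitm2, Ifitm3 and Bst2, singled out after their values were seen, the sum over the other 16 was 22, 19.8 and 18.4 in KO, against 15.1, 19.1 and 22.9 in WT. The groups overlapped in this second sum and not in the first.

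Parp14, a mono-ADP-ribosyltransferase, was at 1.67, 1.30 and 0.757 CPM in KO, against 1.07, 5.02 and 5.97 CPM in WT (log2 fold change -1.70, SE 0.64, adjusted p = 0.0862, edgeR). Parp9 and Dtx3l, whose proteins form an ADP-ribosylating ubiquitin ligase and whose genes overlap over 458 exon bases, stood at -0.72 (SE 0.31, adjusted p = 0.121) and -0.56 (SE 0.30, adjusted p = 0.194). Parp9 was at 5.76, 5.88 and 4.40 CPM in KO, against 5.78, 8.64 and 12.1 CPM in WT, and Dtx3l at 4.5, 4.53 and 4.45 CPM in KO, against 4.15, 7.63 and 8.10 CPM in WT. Eif2ak2 (PKR, a kinase that halts translation), Trim25 (a ubiquitin ligase of the RIG-I pathway), Usp18 (which removes ISG15), Isg20 and Ifit2 did not pass (adjusted p from 0.296 to 0.907).

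In the edgeR quasi-likelihood test, the library WT 3 decided the calls of 8 members. Without it 17 of 44 tested members passed, 38.6%, against 38.2% of all genes tested in that fit (20.2% higher and 18.1% lower in KO). All 9 calls of the fit with 6 libraries were among them, and the 8 others were B2m (log2 fold change -0.63, adjusted p = 0.00454), Tap2, Irf1 (-0.78, adjusted p = 0.0225), Stat3 (-0.99, adjusted p = 0.00218), Parp9 (-0.96, adjusted p = 0.0267), Parp14 (-2.15, adjusted p = 0.00471) and Dtx3l (-0.81, adjusted p = 0.0288) as lower in KO and Stat2 (0.85, adjusted p = 0.00366) as higher (edgeR quasi-likelihood test). These 8 were picked by the fit without WT 3, so the place of WT 3 among their values is part of how they were chosen. The place of WT 3 differed between marker lists. The 10 astrocyte markers summed to 1530, 2190 and 1530 CPM in KO 1, KO 2 and KO 3, against 2900, 7780 and 8640 CPM in WT 3, WT 6 and WT 7. Likewise, 10 cell cycle markers summed to 1670, 2130 and 1620 CPM in KO, against 311, 122 and 94.2 CPM in WT, and WT 3 was the WT library nearest to KO in both sums. It was the farthest from KO in 10 markers of the oligodendrocyte lineage, which summed to 1130, 2050 and 1760 CPM in KO, against 4710, 3920 and 4220 CPM in WT. In bulk samples fewer cells of a type and less RNA per cell cannot be told apart, and the part of these cell populations in the values of the members was not tested.

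**Figure D4:**
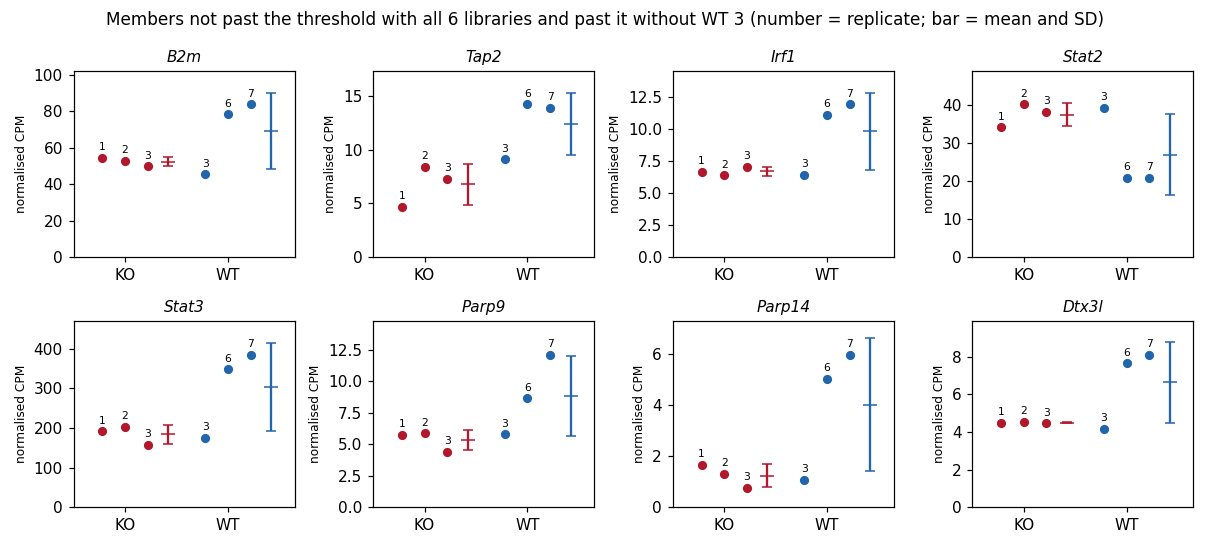
Normalised CPM (y axis, linear from 0, each panel with its own scale) of the 8 members that in edgeR did not pass with all 6 libraries and passed without WT 3, in KO (red) and WT (blue), with replicate numbers beside the points and the mean with its SD to their right. WT 3 lies apart from WT 6 and WT 7 in every panel, on the side of the KO libraries, which follows from how these genes were picked.

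Markers of microglia, vessel cells and meningeal fibroblasts, cell types known for interferon-induced and class I genes, were also summed. The 14 microglia and macrophage markers summed to 35.7, 6.53 and 6.81 CPM in KO 1, KO 2 and KO 3, against 3.14, 11.7 and 7.34 CPM in WT, and 7 of the 14 were tested. In edgeR 0 of these 7 passed, also at an unadjusted p of 0.05, while DESeq2 called 1 and limma-voom 0. The 12 endothelial markers summed to 9.63, 8.75 and 4.59 CPM in KO, against 7.12, 7.68 and 5.59 CPM in WT. Kdr made up 0.922, 1.03 and 1.37 CPM of these sums in KO, against 4.6, 6.28 and 3.22 CPM in WT. Of 4 tested genes, Cd34 was higher (5.23-fold) and Kdr lower (4.21-fold), and Kdr alone had a log2 fold change below 0. The call of Kdr held whichever library was left out, and that of Cd34 ended without KO 1, KO 2, WT 6 or WT 7. Cdh5, Cldn5, Tie1, Sox17 and Erg had no read in any WT library and at most 7 in a KO library. Pecam1 had 31, 27 and 24 reads in KO, against 17, 11 and 16 in WT, and did not pass. The 10 mural markers, of the vessel wall, summed to 106, 55.8 and 94.7 CPM in KO, against 139, 120 and 136 CPM in WT. Most of each sum was Notch3, at 58.7, 46.0 and 86.4 CPM in KO, against 125, 113 and 131 CPM in WT. Of 7 tested genes, Anpep and Acta2 were higher (11.9-fold and 9.77-fold) and Notch3 lower (1.93-fold). Notch3 alone had a log2 fold change below 0. The call of Acta2 held whichever library was left out. That of Anpep ended without KO 1, WT 6 or WT 7, and its log2 fold change ran from 1.87 to 4.04 with 1 library left out. That of Notch3 ended without KO 1, KO 2, WT 6 or WT 7. Of the meningeal fibroblast markers, which were high in KO 1, 2 of 8 tested rose in the comparison of the groups, 7 of 8 had an unadjusted p below 0.05 and DESeq2 called 5. The 2 that rose were Lum and Slc6a13. The call of Lum held without KO 1 and ended without WT 3, WT 6 or WT 7, and that of Slc6a13 ended without KO 1, WT 6 or WT 7. The median log2 fold change of the 8 was 2.83, and none was lower in KO. With 1 library left out, the lowest log2 fold change of each of the 8 ran from 0.62 (Dcn) to 1.73 (Lum). Ifitm3 and Bst2 were also highest in KO 1, with Bst2 at 11.1 CPM there, against 10.3 CPM in KO 3. Among the KO libraries, KO 1 was the highest for Jak2, Ddx58 and Gbp2 too, which fell in KO. Of the other members past the threshold, Tap1, Tapbp and Ifngr2 were highest in KO 3 among the KO libraries, and Samhd1 in KO 2. Without KO 1 the log2 fold change was 1.69 for Bst2 and 1.63 for Ifitm3, and the part of meningeal cells, vessel cells or microglia in these values was not tested.

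Further genes of the pathway were taken in lists drawn up by function. Of 20 further signalling genes 17 were tested, with 2 higher and 2 lower, of 45 further effectors 27 were tested, with 2 higher and 4 lower, and of 28 further antigen presentation genes 23 were tested, with 2 higher and 2 lower. This is 20.9% of the 67 tested, again below the 29.0% of all genes. The median log2 fold changes of the 3 lists were -0.23, 0.16 and 0.16.

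The gene with the largest log2 fold change among these 67 acts in the sensing of DNA in the cytosol. Tmem173, which encodes the adaptor STING, had 117, 121 and 80 reads in KO, against 7, 6 and 7 reads in WT, or 6.74, 6.53 and 3.78 CPM, against 0.393, 0.301 and 0.331 CPM. The KO level was 16.4-fold higher (log2 fold change 4.03, SE 0.37, adjusted p = 0.00132, edgeR). Mb21d1, which encodes the DNA sensor cGAS upstream of STING, had 56, 52 and 36 reads in KO, against 5, 11 and 15 reads in WT (2.30, SE 0.44, 4.91-fold, adjusted p = 0.0105). Both calls held whichever library was left out, from 3.92 to 4.27 for Tmem173 and from 2.01 to 2.59 for Mb21d1, and in KO they reached at most 3.03 FPKM (Tmem173) and 0.810 FPKM (Mb21d1). The other signalling genes that passed were Pias1 (-0.40, SE 0.10) and the feedback inhibitor Socs3 (-1.15, SE 0.35), whose calls each ended without any of 4 libraries, and Traf3 did not pass (0.39, SE 0.15, adjusted p = 0.085).

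Among the further effectors, Mx2, an interferon-induced GTPase that the table annotates as a polymorphic pseudogene, fell to 0.922, 0.918 and 1.37 CPM in KO, against 8.75, 5.98 and 4.59 CPM in WT (log2 fold change -2.57, SE 0.36, 5.96-fold lower, adjusted p = 0.0038, edgeR), and WT 3 was here the library farthest from KO. Irgm2, an immunity-related GTPase (-2.36, SE 0.69), the deaminase gene Apobec3 (-1.02, SE 0.30) and the helicase gene Ddx60 (-1.98, SE 0.59) also fell, Shisa5 (0.72, SE 0.17) and Ube2l6 (1.27, SE 0.39), the conjugating enzyme of ISG15, rose, and the calls of these 5 ended without at least 1 library. Irgm2 and Apobec3 overlap other annotated genes, Igtp and Cbx7. The 18 further effectors that were not tested, among them Oas1a, Oas2, Oas3, Oasl1, Mx1 and Ifi44, had at most 27 reads in a library. Among the further antigen presentation genes, Cd1d1, which presents lipids, fell to 16.0, 17.8 and 18.6 CPM in KO, against 28.0, 42.9 and 34.0 CPM in WT (-1, SE 0.18, adjusted p = 0.00927), and its call held whichever library was left out. The non-classical heavy chain gene H2-Q7 was at 3.63, 7.45 and 4.45 CPM in KO, against 1.46, 0.854 and 0.710 CPM in WT (2.36, SE 0.42, adjusted p = 0.00837), but it belongs to a family of near-identical genes and its value is uncertain. Rfxank, a subunit of the factor that binds MHC promoters, fell (-0.72, SE 0.14) and H2-DMa, of the class II pathway, rose (0.89, SE 0.22), the call of Rfxank ending without WT 6 and that of H2-DMa without any library but WT 3. Pdia3, a chaperone of peptide loading, stood at 0.36 (SE 0.13, adjusted p = 0.0742).

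**Figure D5:**
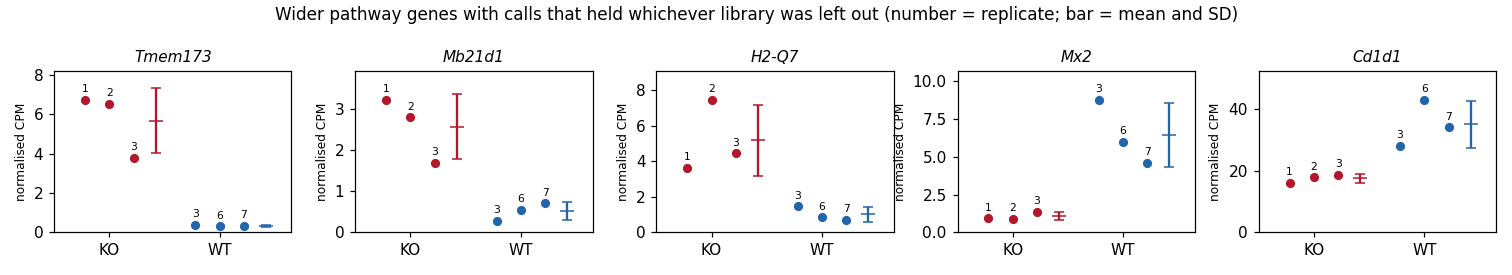
Normalised CPM (y axis, linear from 0, each panel with its own scale) of the 5 further pathway genes whose calls held whichever library was left out, in KO (red) and WT (blue), with replicate numbers beside the points and the mean with its SD to their right. Tmem173, Mb21d1 and H2-Q7 are higher in every KO library, and Mx2 and Cd1d1 lower.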

How the data were processed

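The deposited table held whole-number read counts per gene, not normalised by the authors, per the file headers, and FPKM values per gene that the authors made. The FPKM columns repeat the header names of the counts, so their unit was taken from the values. Counts of the members differed from those implied by FPKM by at most 0.103 reads. Per the submitters' processing notes the tools were HISAT2 2.0.5, featureCounts 1.5.0-p3 and DESeq2 1.16.1 with mm10, with their settings, the use of strand included, not given in the sources used here. Libraries were made from 3 µg of RNA, per the labels' protocols.

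KO was set against WT in 1 edgeR 4.0.16 fit (R 4.3.3) of all 6 libraries without covariates: TMM, filterByExpr (16606 genes), quasi-likelihood F test, Benjamini-Hochberg, threshold 0.05. SE is the absolute log2 fold change divided by the square root of F. An exact permutation test of 3 against 3 cannot reach 0.05 and was not used. Scripts were tested on simulated data. Alternatives used DESeq2 1.42.0 and limma 3.58.1. The members and lists were chosen with earlier results of these data known. Library values are given for the up to 6 members of each role with the lowest p and for every member that passed, and other lists name up to 5 genes; further members and Ube2l6 were added after their values were seen. Any 2 libraries differed by more than counting noise (lowest chi-square over its degrees of freedom 16.1).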

Additional observations from a re-analysis of the deposited data

How the results depend on the processing

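The calls of Tapbp, Bst2 and Gbp2 held under each of the 9 other settings and in all 6 fits with 1 library left out, while the other 6 members lost theirs under at least 1 of these. With limma-voom and quality weights, 4133 genes were higher and 3919 lower in KO, 13 members were lower, and 6 antigen presentation genes, 6 signalling genes and 7 effectors passed. Tested against a 1.5-fold change, 751 genes were higher and 771 lower, with 1 member higher and 2 lower, 1 antigen presentation gene, 2 effectors and 0 signalling genes (0 also at an unadjusted p of 0.05 with edgeR in that test, and 3 by DESeq2 and 6 by limma-voom against no change). With 1 library left out, counts over all genes ran from 1027 (without WT 6) to 3500 (without WT 3) higher and from 1151 (without WT 6) to 3141 (without WT 3) lower, and over members from 1 to 6 higher and from 2 to 11 lower, also lowest without WT 6 and highest without WT 3. They ran from 1 to 4 for antigen presentation, 0 to 6 for signalling (2 to 7 at an unadjusted p of 0.05, edgeR) and 2 to 7 for effectors. RLE factors, library totals, either filter, DESeq2 and both FPKM scales kept these counts within 1.5 times. No called member changed sign, and DESeq2 centred all genes at 0.15, on the log2 scale, over its own gene set. On the log2(FPKM + 1) scale Gbp2 stood at -1.07, since a pseudocount shrinks the change of low genes. No paired analysis was possible because the groups share only replicate number 3. Ifit1, with at most 6 reads in a library, and Ifit3, with at most 20, did not pass the filter on low counts. Changes in them were therefore not tested, and the depth may not show changes in genes this low.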
